A study of Drosophila melanogaster with 4 samples.

Results

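The 6 actin genes of Drosophila melanogaster were followed across 4 Agilent 2-colour arrays that compared embryos lacking the 8-miR cluster with w1118 embryos. Gene probes were taken where their annotation ID was that of Act5C (CG4027), Act42A (CG12051), Act57B (CG10067), Act79B (CG7478), Act87E (CG18290) or Act88F (CG5178). This gave 8 of the 32162 gene probes on the array, with 2 each for Act5C and Act42A and 1 for each of the other genes. After a filter on dim probes, 7 of the 8 were tested, and 5 of the 6 genes were among the 9736 genes tested. The null embryos carried the cluster deletion in a w1118 background. The w1118 embryos, labelled wild type, were of the same white-eyed laboratory background without the deletion. Eggs of both genotypes were laid over 2 h and aged for 6 h, which put the embryos at 6 to 8 h after egg laying. Titles and source names give this genotype, whereas a characteristic reads miR-8 cluster null and the treatment text speaks of ectopic mir-3, so the labels conflict. How the deletion was made is not given in the sources used here.

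Actin monomers polymerise into filaments that shape cells, divide them and, with myosin, contract muscle. Fly actin genes are divided by where they are used. Act5C and Act42A encode the cytoplasmic actins of nearly all cells, and their RNA is also supplied by the mother. Act57B and Act87E are the main actins of embryonic and larval body wall muscle, and Act57B is a known direct target of Mef2, the muscle transcription factor named in the series title. Act79B serves leg and other tubular muscles of the adult, and Act88F the indirect flight muscles. The proteins are nearly identical and the coding sequences are close copies, so a probe for one gene may cross-hybridise with the RNA of another. Probe sequences were not used here, and cross-hybridisation was not tested. By a Release 6 gene table, Act5C lies on chromosome X, Act42A and Act57B on 2R, the arm of the deleted cluster, Act79B on 3L, and Act87E and Act88F on 3R. Positions are not given, since the array was designed on an older build than that table.

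Each replicate set 1 extract of null embryos against 1 extract of w1118 embryos on 1 array, and per the design text the 3 extracts of each genotype came from independent isolations. In all 3 replicates the null was labelled with Cy3. A further array, the dye swap, held the extracts of replicate 1 with the dyes exchanged, and both arrays of that replicate were averaged before any test. Replicate 1 was run on slide 1, swap included, and the others on slide 2. On the arrays 58.0% to 65.5% of green and 56.7% to 65.8% of red gene spots were well above background. Across kept probes, log2 ratios correlated at Pearson's r of 0.941 to 0.958 among unswapped arrays and of 0.824 to 0.883 with the dye-swap array. Probes are not replicates, so these values are descriptive. Among cell type markers, all 7 listed epidermis and trachea genes and 9 of 10 neuronal genes were measured, while 6 of 7 testis and adult muscle markers were not. Of 9 neuronal genes 4 were called lower and 1 higher, and of 7 epidermis and trachea genes 2 and 1. Of 8 hemocyte genes 3 were lower and 2 higher, and of 5 fat body and gut genes 2 and 1. The gene srp was in both of these lists and is counted as lower in each. Among all genes 26.7% were lower and 28.1% higher, and the lower hemocyte gene Hml was kept only through w1118. Of 11 follicle cell and ovary genes measured, 7 were called lower, beside 26.7% of all genes, and 2 of these, Vm32E and Vm26Ab, passed the filter only through w1118. The log2 of the summed signal of all 11 follicle cell and ovary genes was 10.47 to 10.51 in null extracts, against 11.26 to 11.35 in w1118 extracts. Such a sum rests mostly on the brightest genes. Vm32E was not above background in the null. The part of these markers in the actin ratios was not tested.

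In embryos without the cluster, 1 actin gene, well above background, was called higher. Act87E, an actin of body wall muscle, was 1.30-fold higher (95% interval 1.18 to 1.44), the largest ratio among the 5 genes tested. Only replicate 1 was run in both dye orientations, and its mean log2 ratio was 0.24, against 0.46 and 0.45 in replicates 2 and 3. The fold and its interval therefore include any dye bias of replicates 2 and 3, where dye and genotype cannot be told apart. Act88F, barely above background, was called lower at a log2 ratio of -0.15, but it entered the test only through w1118, where it was above background in 2 of 3 replicates, against 1 of 3 in the null. Act5C, Act42A and Act57B did not pass the test by their brightest probes, and Act79B was not above background. Thus 1 of 5 genes was called higher and 1, Act88F, lower with that limit (limma, Benjamini-Hochberg adjusted p under 0.05), beside 28.1% called higher, 26.7% lower and 54.7% in either direction among all 9736 genes. Ratios are log2 of null over w1118, with SD over 3 replicates, and their direction rests on the dyes in the labels. By probe, 2 of 7 were higher and 2 lower, that of Act88F among them, beside 24.9% higher, 25.4% lower and 50.4% either way among all 19750 kept probes. In whole embryos, fewer cells of a type and less RNA per cell cannot be told apart.

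**Figure D1:**
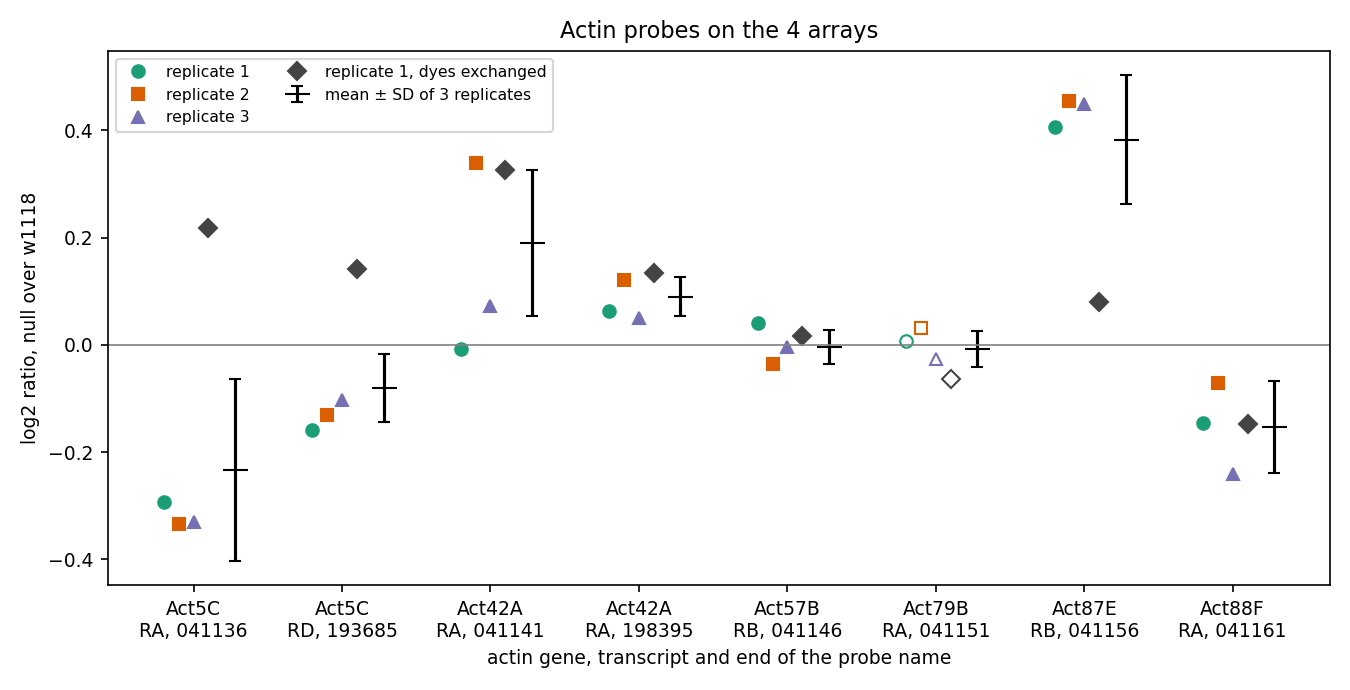
Log2 ratio of null over w1118 (y axis) for the 8 actin probes (x axis, with transcript and the end of the probe name). Points are the 4 arrays, black bars are the mean ± SD of 3 replicates, and open points mark the Act79B probe that did not pass the filter. Both Act5C probes were below 0 on the 3 unswapped arrays and above 0 on the dye-swap array, and Act87E was above 0 on all 4.

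Act5C, the more widely used cytoplasmic actin gene, had probes named for transcripts RA and RD. The RD probe A_09_P193685 was the brighter and represented the gene. Its log2 signal was 16.36, 16.12 and 16.33 in null replicates 1 to 3 and 16.43 in null replicate 1 on the dye-swap array, against 16.52, 16.25 and 16.44 in w1118 replicates 1 to 3 and 16.29 in w1118 replicate 1 on the dye-swap array. The ranges of the 2 genotypes overlapped. Unswapped, the ratio was -0.16, -0.13 and -0.10, and swapped it was 0.14. Its mean of -0.08 ± 0.06 (SD, n = 3; 95% interval -0.20 to 0.03) did not pass (limma adjusted p = 0.189).

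The RA probe A_09_P041136 of Act5C gave a log2 signal of 16.06, 16.12 and 16.13 in null replicates and 16.27 in null replicate 1 with dyes exchanged, against 16.35, 16.46 and 16.46 in w1118 replicates and 16.05 in w1118 replicate 1 with dyes exchanged. On every array the Cy5 channel, whichever genotype it held, was the brighter, at 16.27 to 16.46 in Cy5 and 16.05 to 16.13 in Cy3. Its ratio stood at -0.29, -0.33 and -0.33 unswapped, and at 0.22 swapped. As a mean over replicates it was called lower at -0.23 ± 0.17 (limma over all kept probes, adjusted p = 0.0317). With a dye term over the 4 arrays, in which the extracts of replicate 1 count as 2 arrays, the genotype part was -0.05 (adjusted p = 0.291) and the dye part -0.27 (adjusted p = 0.0299). The dye part passed for 2 of the 7 actin probes, this one and that of Act87E, beside 9.35% of all kept probes. The lower call of the RA probe was lost without replicate 2 (adjusted p = 0.0885) and without replicate 3 (adjusted p = 0.184). In the same fit the genotype part of the RD probe was 0.005.

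Act42A, the other cytoplasmic actin gene, had mean ratios above 0 by both of its probes, each named for transcript RA. The brighter, A_09_P198395, had a log2 signal of 16.14, 16.05 and 16.00 in null replicates and 16.16 in null replicate 1 with dyes exchanged, against 16.08, 15.93 and 15.95 in w1118 replicates and 16.03 in w1118 replicate 1 with dyes exchanged. The null extract was the higher on each of the 4 arrays, although the ranges of the genotypes overlapped. The ratio averaged 0.09 ± 0.04 (SD, n = 3; 95% interval -0.02 to 0.20) and did not pass (limma adjusted p = 0.13). Its values on the arrays were 0.06, 0.12 and 0.05, and 0.13 with dyes exchanged.

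The dimmer Act42A probe, A_09_P041141, was called higher at 0.19 ± 0.14 (limma over all kept probes, adjusted p = 0.0421). Its log2 signal was 14.88, 14.96 and 14.89 in null replicates and 15.03 in null replicate 1 with dyes exchanged, against 14.89, 14.62 and 14.82 in w1118 replicates and 14.71 in w1118 replicate 1 with dyes exchanged. Its ratio was -0.0074, 0.34 and 0.07 unswapped, and 0.33 swapped. The probe had 2 spots on each array, and in replicate 2 these gave 0.01 and 0.67, whereas on the other 3 arrays they lay within 0.05 of each other. The call was lost without replicate 1 (adjusted p = 0.085), without replicate 2 (adjusted p = 0.317) and without replicate 3 (adjusted p = 0.0608). With each array centred on its median in place of loess, the ratio was -0.10 for the brighter probe and 0.06 for the dimmer, so the direction depended on the normalization for 1 of the 2 probes.

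**Figure D2:**
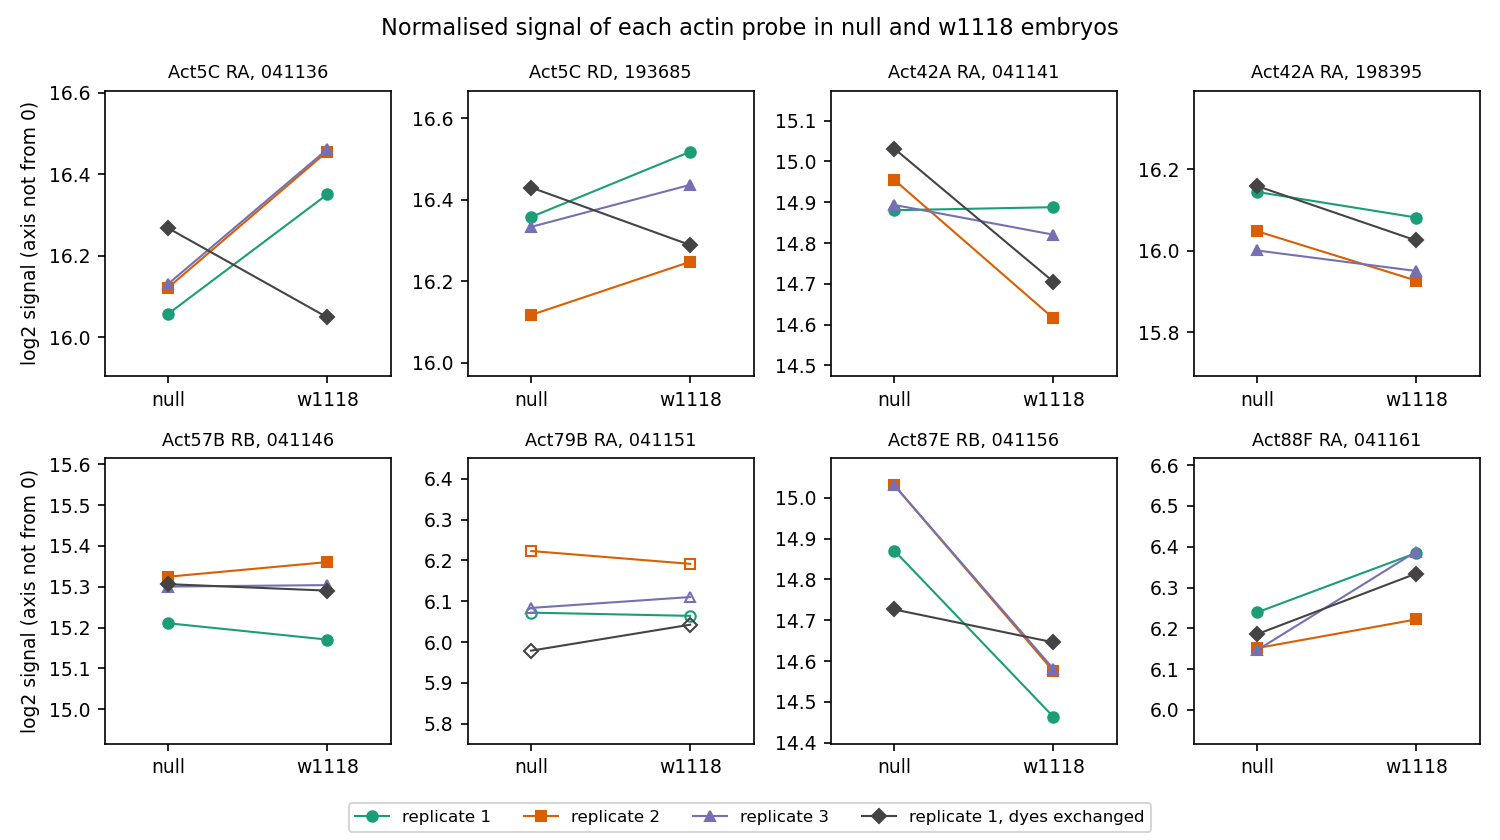
Normalised log2 signal (y axis) of each actin probe in null and w1118 extracts (x axis). Lines join the 2 channels of 1 array, every panel spans the same log2 range, and open points mark the Act79B probe that did not pass the filter. The line of the dye-swap array runs against the other 3 for both Act5C probes and is flatter than the other 3 for Act87E.

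Act57B, the body wall muscle actin and Mef2 target, had the ratio nearest 0 of the genes tested. The probe is named for transcript RB. Its log2 signal was 15.21, 15.32 and 15.30 in null replicates and 15.31 in null replicate 1 with dyes exchanged, against 15.17, 15.36 and 15.30 in w1118 replicates and 15.29 in w1118 replicate 1 with dyes exchanged. The values of the genotypes lay within the same range. The ratio was 0.04, -0.04 and -0.0036 unswapped and 0.02 with dyes exchanged, with a mean of -0.0038 ± 0.03 (SD, n = 3; limma adjusted p = 0.949). The 95% interval of the fold was 0.93 to 1.07. That interval holds for loess ratios: with the scanner's own processed signals the ratio was 0.15 (adjusted p = 0.0549) and with median centring -0.16 (adjusted p = 0.16).

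Act87E, the second body wall muscle actin gene, was called higher in the null. Its probe, also named for transcript RB, had a log2 signal of 14.87, 15.03 and 15.03 in null replicates and 14.73 in null replicate 1 with dyes exchanged, against 14.46, 14.58 and 14.58 in w1118 replicates and 14.65 in w1118 replicate 1 with dyes exchanged. Every null value was above every w1118 value. The ratio averaged 0.38 ± 0.12 (SD, n = 3; limma adjusted p = 0.00192), and 89.6% of the genes tested had a lower ratio. Unswapped it was 0.41, 0.46 and 0.45, but swapped only 0.08. Replicate 1, on slide 1, thus had a mean of 0.24, and replicates 2 and 3, on slide 2, one of 0.45. With the dye term over all kept probes, replicate 1 again counting as 2 arrays, the genotype part was 0.26 (95% interval 0.17 to 0.35, limma adjusted p = 0.002). The dye part of this fit was 0.18 (limma adjusted p = 0.0433) and rests on a single dye-swap array. Without moderation the call was lost (limma, adjusted p = 0.0861).

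The Act87E probe was spotted 10 times on each array, as 1 of 200 gene probes with 10 or more spots, which gave a measure of spread within an array. On the unswapped arrays all 29 spots used were above 0, with 1 outlier spot of replicate 2 left out. They ranged from 0.23 to 0.51 in replicate 1, from 0.28 to 0.63 in replicate 2 and from 0.24 to 0.58 in replicate 3. On the dye-swap array 9 of 10 spots were above 0, from -0.0085 to 0.20, and none reached the lowest spot of the other arrays. The SD among spots was 0.07, 0.11 and 0.11 unswapped and 0.06 swapped. Spots of 1 array share their extracts and are not replicates. The gap between the arrays of replicate 1 was larger than the spread among spots of either.

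**Figure D3:**
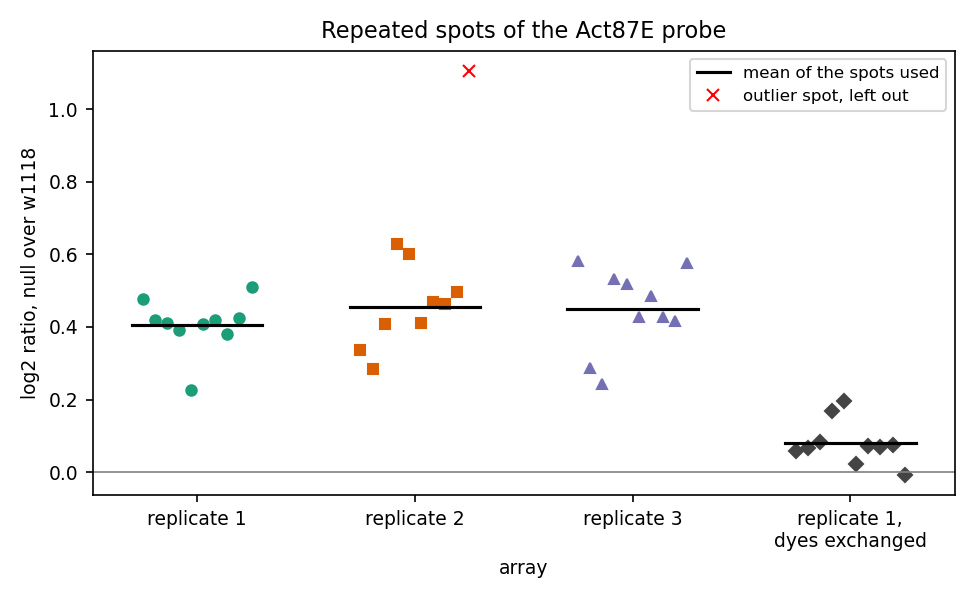
Log2 ratio of null over w1118 (y axis) at each of the 10 spots of the Act87E probe on the 4 arrays (x axis). Black lines are the mean of the spots used and the red cross is the outlier spot that was left out. The unswapped arrays centred on 0.41 to 0.46 and the dye-swap array on 0.08.

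The adult muscle actins were at or near background, and both were followed by a probe named for transcript RA with 2 spots on each array. For Act79B, 1 of 8 null spots and 0 of 8 w1118 spots were well above background over the 4 arrays, so no fold is given. Its unnormalised median signal in null extracts was 37.25, 39.5 and 32.25 in Cy3 over a local background of 24, 21 and 20.25. In w1118 extracts it was 67.25, 68.5 and 64.25 in Cy5 over a background of 55.25, 49.5 and 51. With dyes exchanged it was 62.75 in the null over 56.5 and 39.5 in w1118 over 25.5.

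Act88F was well above background in 3 of 8 null spots and 5 of 8 w1118 spots. The null reached the required share of spots in 1 of 3 replicates and w1118 in 2 of 3, which let the probe pass only through w1118. Its log2 signal was 6.24, 6.15 and 6.15 in null replicates and 6.19 in null replicate 1 with dyes exchanged, against 6.38, 6.22 and 6.39 in w1118 replicates and 6.33 in w1118 replicate 1 with dyes exchanged. The null extract was the lower on all 4 arrays, with ratios of -0.15, -0.07 and -0.24 and of -0.15 with dyes exchanged, while the ranges of the genotypes overlapped. The mean of -0.15 ± 0.09 (SD, n = 3) was called lower (limma adjusted p = 0.0422). The call was lost without replicate 1 (adjusted p = 0.0786), without replicate 3 (adjusted p = 0.296) and with replicate 1 taken from its dye-swap array (adjusted p = 0.109). Its size depended on the background correction, at -0.48 with a normexp offset of 0 and -0.80 with the scanner's processed signals. Under a filter asking for more than the required share of spots the probe was not tested.

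Within arrays the 4 bright genes could be set against each other by their ratios. Act87E exceeded Act57B by 0.22, 0.49 and 0.45 in replicates 1 to 3, a mean of 0.39 ± 0.15. It exceeded Act5C by 0.46 ± 0.18 and Act42A by 0.29 ± 0.13. Act42A exceeded Act5C by 0.17 ± 0.07 and Act57B by 0.09 ± 0.06, and Act57B exceeded Act5C by 0.08 ± 0.03. All 6 differences kept 1 sign in the 3 replicates, and the exact sign-flip test, two-sided, gave p = 0.25 for each, the smallest that 3 replicates allow (adjusted p = 0.25 over 6 pairs). On the dye-swap array alone, Act87E was 0.06 below Act5C and 0.05 below Act42A, and 0.06 above Act57B. There the difference of Act57B from Act5C also reversed, to -0.13, and that of Act42A from Act5C was -0.0077. Act42A stayed above Act57B on that array, by 0.12. The order of the cytoplasmic and muscle actins by ratio therefore differed between the dye orientations.

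**Figure D4:**
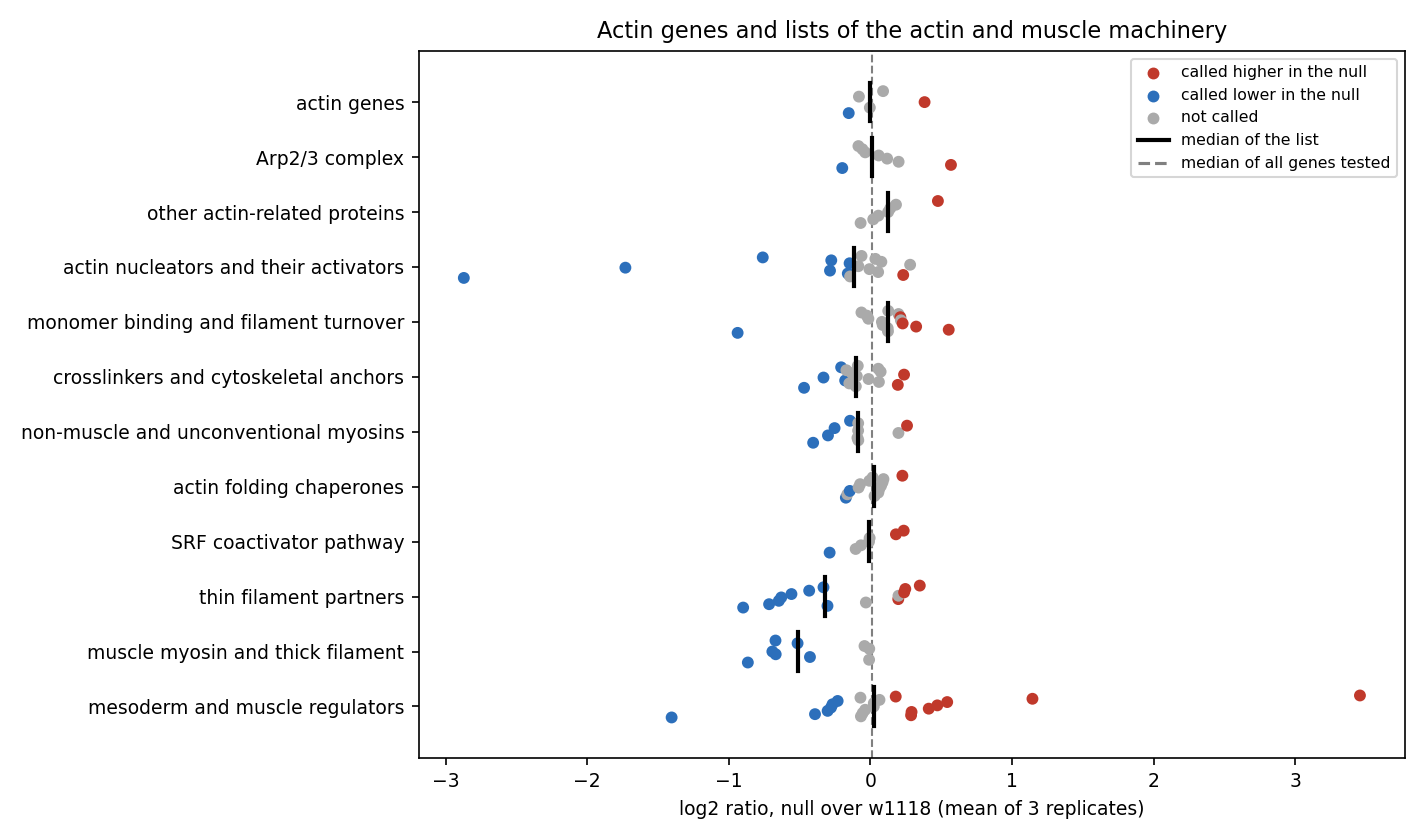
Log2 ratio of null over w1118 (x axis, mean of 3 replicates) for the 5 actin genes tested and for the genes of 11 lists (rows). Points are genes, coloured by call, black bars are list medians and the dashed line is the median of all genes tested. The actin genes lie between -0.15 and 0.38, while most thin and thick filament genes lie to the left of 0.

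The proteins that work with sarcomeric actin were measured beside it. Of 14 genes listed as thin filament partners, such as tropomyosins and troponins, 8 were called lower and 4 higher, with a median of -0.32. That list is broader than the thin filament itself. It also held bt and Strn-Mlck, among the lower genes, and Obsc and sls, among the higher, which are neither tropomyosins nor troponins. Of 9 muscle myosin and thick filament genes 6 were lower and 0 higher, with a median of -0.51. Over all genes tested 28.1% were called higher and 26.7% lower, and the median was 0.01. These calls rest on the brightest probe of each gene, and other kept probes did not always give the same ratio. Strn-Mlck was -0.90 by its brightest probe and -0.31 to 0.05 by the others, and sls 0.25 and -0.01 to 1.62. The probes of wupA (-0.72, others -0.78 to -0.53) and Mhc (-0.69, others -0.68 to -0.57) lay closer together. Together the 23 genes had a median of -0.50, -0.36 and -0.41 in replicates 1 to 3. Act57B gave 0.03, -0.04 and -0.0036 in the same replicates, and Act87E 0.24, 0.46 and 0.45. Of the 23, 18 had a lower ratio than Act57B and 23 a lower one than Act87E. No test of this difference was made, so nothing particular to the actin genes is read from it. The signals also differed, with a mean log2 of 15.29 in null and 15.30 in w1118 extracts for Act57B, and 14.95 and 14.57 for Act87E. The log2 of the summed signal of the 14 thin filament partners was 13.62 to 13.68 in null and 13.68 to 13.85 in w1118 extracts. For the 9 thick filament genes it was 12.93 to 12.96 and 13.36 to 13.51. Cross-hybridisation of the Act57B and Act87E probes with RNA of other actin genes was not tested. Of 21 mesoderm and muscle regulators 8 were higher and 6 lower.

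In the wider actin machinery most genes did not pass the test. Over 8 lists with 93 genes, 13 were called higher, 20 lower and 60 neither, with a median of -0.01, beside 28.1% higher and 26.7% lower among all genes. Several of the lists lay near or under those shares. The Arp2/3 complex, which starts branched filaments, had 1 of 8 higher and 1 lower, with Arpc3B at 0.57 ± 0.10 and a second probe at 0.32. Of 16 nucleators and activators 7 were lower and 1 higher, and the formin gene Fhos was lower at -2.87 ± 0.09 by 1 probe and -0.67 by another (mean of probes -1.77). Of 15 genes for monomer binding and filament turnover 4 were higher and 1 lower. In that list capt, the cyclase-associated protein that recycles actin monomers, was higher at 0.55 ± 0.06 by its brightest probe and 0.21 and 0.30 by the others (mean of probes 0.36), and flr, which promotes disassembly with cofilin, was lower at -0.94 ± 0.12. Crosslinkers and anchors had 4 of 16 lower and 2 higher, and non-muscle and unconventional myosins 4 of 10 lower and 1 higher, and of the lower genes Myo81F was kept only through w1118. Of 14 chaperonin and prefoldin genes, which fold new actin, 1 was higher and 2 lower. In the SRF pathway, through which free actin controls transcription of actin genes in mammals, 2 of 7 were higher and 1 lower, and the SRF gene bs was lower at -0.29 ± 0.01. Of 7 other actin-related proteins 1 was higher and 0 lower.

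By Euclidean distance of the 4 array ratios, the 2 genes nearest to each actin gene were listed as a description. For Act87E they were Hrs, an endosomal sorting gene, at 0.038 and CG10598 at 0.044. For Act5C, fj and Cpr47Eg lay at 0.042 and 0.043, both again negative on unswapped arrays and positive on the dye-swap array. Ir56d (0.0195) and ATPCL (0.0201) were nearest to Act42A, Kebab (0.035) and CG10194 (0.038) to Act57B, and p120ctn (0.043) and RNaseMRP:RNA (0.049) to Act88F.

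**Figure D5:**
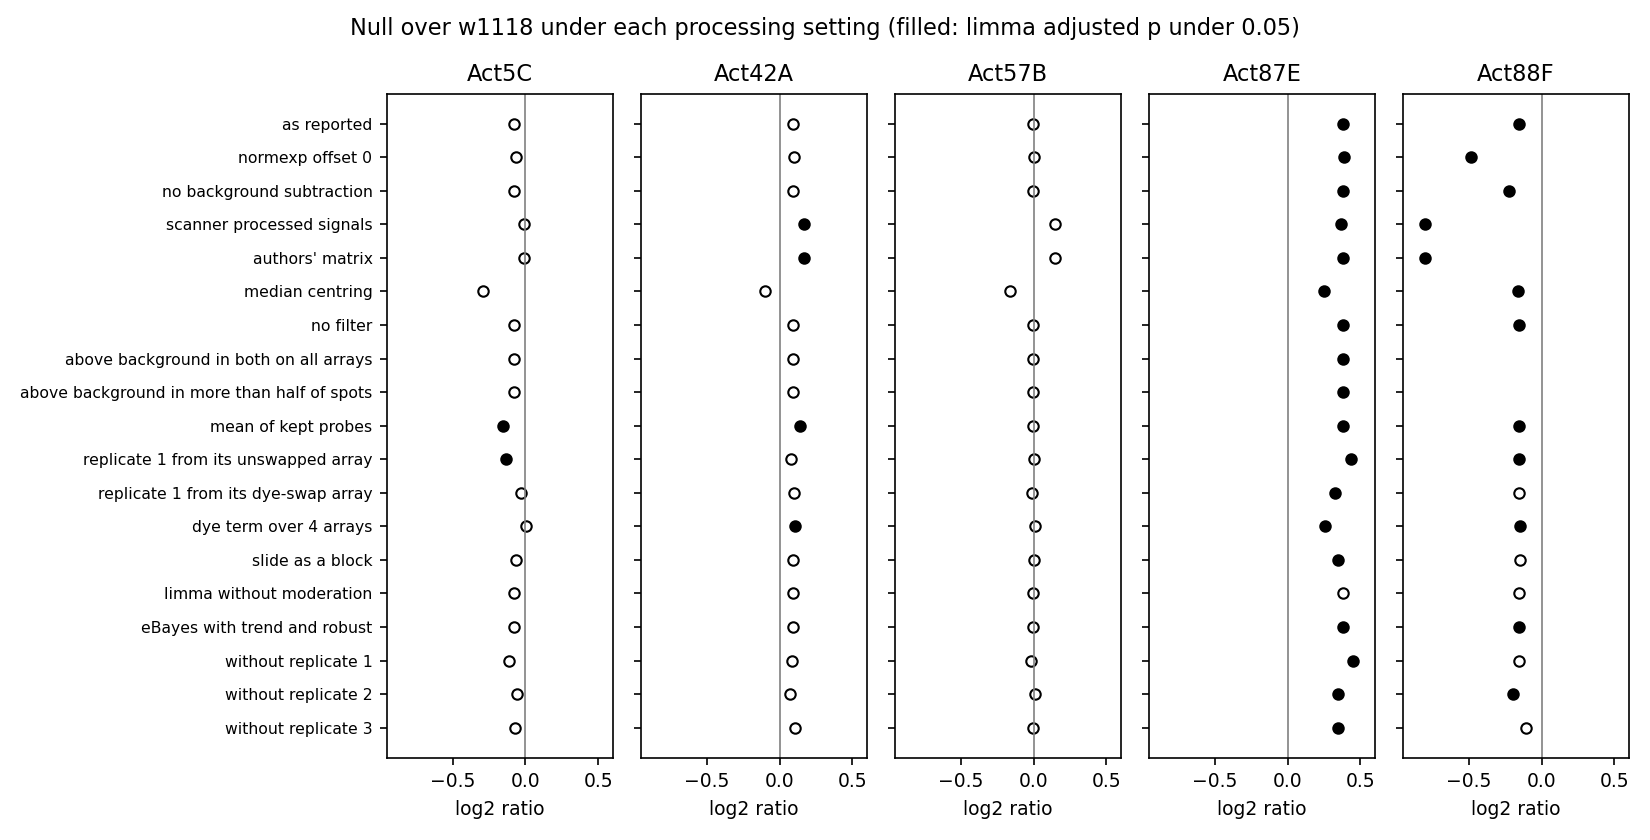
Log2 ratio of null over w1118 (x axis) for the 5 actin genes tested under each processing setting (y axis), with filled points where the limma adjusted p was under 0.05. Act87E was above 0 in all settings, from 0.25 to 0.45, and the points of Act57B lie on both sides of 0.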

How the data were processed

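RNA of both genotypes was measured on 2-colour arrays, scanned and extracted by the authors with Agilent Feature Extraction 10.1.1.1, per the file headers. The deposited intensity columns used were median spot and median local background brightness, not normalized, and the scanner's processed intensity, from which, per the file headers, background was subtracted and dye bias removed. The authors' series matrix holds log2 values; set against processed signals, its columns ran w1118 over null with a slope of 1.00 in size and medians of -0.137, 0.071, 0.128 and -0.041, and its centring was not stated.

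Ratios were computed with limma 3.58.1 in R 4.3.3 (normexp, offset 50, loess, control and outlier spots at weight 0) and turned to null over w1118 by the labelled dyes. Signals are log2 after loess and Aquantile. A probe was kept if at least the share 0.5 of its spots was well above background in 1 genotype in 2 of 3 replicates, on both arrays for replicate 1. The brightest kept probe represented a gene. Of 32162 probes, 19482 were named for 13059 genes through a Release 6 table, and 12680 were not. Each array holds both genotypes of 1 replicate, so the ratio pairs them and lmFit used an intercept with eBayes over 3 replicates. No spot of an actin probe was saturated. Genes named were the actin genes, up to 2 higher and 2 lower called members of each list (a selection is printed) and the 2 nearest genes. The members and lists were chosen with earlier results of these data known. Of 201 listed names 2 matched no gene and 174 distinct genes were tested. In a simulated table of 9736 genes, 50 altered per fold size, the fit recovered 40% at 1.2-fold, 76% at 1.5-fold, 94% at 2-fold and 100% at 4-fold. With so few altered genes the adjusted p is stricter than in these data, where 54.7% of genes were called. The recovered shares therefore do not give the power here. Alternatives covered background, normalization, filter, probe summary, dye, slide, test and each replicate left out. The number of arrays limits the precision.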

Additional observations from a re-analysis of the deposited data

Results flagged for a closer look

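For 2 of 24 quantities examined, a single array stood far from the remaining 3; chance alone gives about 1 in 20. Both were actin probes on the dye-swap array of replicate 1. The Act5C probe A_09_P041136 gave a log2 ratio of 0.218 there, against -0.333 to -0.293 on the unswapped arrays. The Act87E probe gave 0.0805 there, against 0.407 to 0.455 on the unswapped arrays. The 2 probes moved in opposite directions between the dye orientations. Replicates 2 and 3 were hybridised in 1 orientation only, so for them dye and genotype cannot be told apart.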

How the results depend on the processing

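Act87E was higher under all 18 alternatives, at 0.25 to 0.45, and passed in 17. Without moderation its ratio of 0.38 did not pass. The dye-term fit among the alternatives counts replicate 1 as 2 arrays. Act88F, kept only through w1118, was lower in the 16 alternatives that tested it and passed in 11, which is no independent support. It did not pass without moderation (-0.15), with replicate 1 from the dye-swap array (-0.15) or with slide as a block (-0.15), and ran from -0.19 to -0.11 with 1 replicate left out. Act42A passed with processed signals (0.17), the authors' matrix (0.17), a dye term (0.11) and the mean of probes (0.14), and reversed with median centring (-0.10 for the probe that represents it, against 0.06 for the other). Act5C passed with the mean of probes (-0.16) and the unswapped array of replicate 1 (-0.13), and reversed with a dye term (0.0050 for the probe that represents it, against -0.05 for the other). Its ratio was furthest from 0 with median centring, at -0.29 (limma adjusted p = 0.065). The other Act5C probe gave -0.44 there (limma over all kept probes, adjusted p = 0.0451). Act57B never passed and reversed with offset 0 (0.0057), processed signals (0.146), the matrix (0.146), the unswapped array (0.000192), a dye term (0.0080) and slide as a block (0.0041), and ran from -0.020 to 0.012 with 1 replicate left out. The neuronal marker brp reversed without a filter (-0.067). The cause of these changes was not tested.

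Over all genes 2735 were higher and 2595 lower. Without moderation they were 1062 and 1023, and with the dye-swap array for replicate 1 they were 1748 and 1681. With 1 replicate left out, 1768 to 3003 were higher and 1713 to 2847 lower, and replicate 3 left out gave the fewest. In the pathway lists 25 were higher and 39 lower: 11 and 18 without moderation, 25 lower with the dye-swap array, 38 higher with the unswapped array, and 19 to 32 higher and 25 to 46 lower with 1 replicate left out. The median of all genes stayed within -0.03 to 0.02. The 2 stricter filters on dim probes, 1 of them chosen after seeing the data, gave no value for Act88F.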
